A study of Mus musculus with 8 samples.

Results

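The core circadian clock was followed through 10 of its genes, among 18193 genes measured, in gonadal fat (a white adipose depot) from 10-week-old mice. The genes are Arntl, Clock, Npas2, Per1, Per2, Per3, Cry1, Nr1d1, Dbp and Tef, chosen by gene symbol, and 25 of 45037 probe sets carry exactly one of these symbols. Each gene is given by its brightest probe set, averaged over the 8 arrays, with its other probe sets beside it. The 4 control arrays came from wild type mice (replicates 1, 2, 3 and 4) and the 4 knockout arrays from aP2-Pex5 -/- mice (replicates 6, 8, 9 and 10), all on a Swiss background and under normal conditions without treatment. PEX5 carries enzymes into peroxisomes, organelles that oxidise certain lipids, and the submitters describe the knockout fat as lacking functional peroxisomes. The aP2 promoter (the Fabp4 promoter) is active in adipocytes and also in some other cells, and the labels do not name the deleted exons. They give neither the hour at which tissue was collected nor whether each array came from a separate animal, so a p-value here reflects only the spread of these arrays, which may be technical.

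The circadian clock is a feedback loop of transcription. BMAL1, the product of Arntl, pairs with CLOCK or NPAS2 and activates Per and Cry genes through E-boxes, and the PER and CRY proteins then repress that pair. The same pair activates Nr1d1, whose product represses Arntl, and Dbp, which acts with Tef through D-boxes. In fat, as in most tissues, these transcripts peak at different hours of the day, with Arntl and Npas2 roughly opposite in phase to Nr1d1, Dbp and the Per genes. Clock transcripts vary less over the day in many tissues.

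The promoter stretches below are shown because the regulators that bind these elements are themselves among the genes measured. RefSeq promoters (GRCm38.p6, 250 bases before to 50 after a start site) were found for 9 of the 10 genes, all but Per2, with 14 start sites. The capitals mark an E-box (CACGTG), an E-prime box (CACGTT, read here on the other strand) or a D-box (TTATGTAA), and each stretch runs 5′ to 3′ along the gene and ends before its start site.

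Per1, E-box, chr11:69098756-69098815, plus strand: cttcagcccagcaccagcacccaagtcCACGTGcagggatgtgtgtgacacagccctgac
Cry1, E-prime box and E-box, chr10:85185082-85185160, minus strand: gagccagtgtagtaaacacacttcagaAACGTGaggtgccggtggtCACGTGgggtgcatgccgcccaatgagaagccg
Nr1d1, E-prime box, chr11:98775378-98775432, minus strand: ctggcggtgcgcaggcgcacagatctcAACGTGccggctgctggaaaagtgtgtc
Tef, E-box, start site 1, chr15:81802519-81802578, plus strand: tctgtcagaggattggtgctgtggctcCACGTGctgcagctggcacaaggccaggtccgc
Tef, E-box, start site 2, chr15:81811249-81811308, plus strand: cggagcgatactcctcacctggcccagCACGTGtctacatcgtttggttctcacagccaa
Per3, 2 D-boxes, chr4:151044789-151044897, minus strand: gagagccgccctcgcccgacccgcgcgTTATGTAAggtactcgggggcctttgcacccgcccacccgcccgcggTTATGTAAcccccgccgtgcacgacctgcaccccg

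On both strands, an E-box was found in 4 of the 14 promoters, those of Per1, Cry1 and Tef, and in 7.15% of all 32851 promoters of the same length. The E-prime box was found in 2 of 14 and in 4.68% of all, and a D-box (TTATGTAA or TTACGTAA) in 1 of 14, that of Per3, and in 1.06% of all. The core of the REV-ERB and ROR element (TAGGTCA or TGGGTCA) was found in 1 of 14, at Arntl 30 bases after a start site, and in 6.45% of all. The cyclic AMP element (TGACGTCA) was found in 0 of 14 and in 1.79% of all, while the shorter TGACG, which is part of the full element, was found in 3 of 14, at Per1 and Cry1, and in 20.8%. These are matches of letters and no evidence of binding.

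None of the 10 clock genes differed between knockout and control after adjustment over all genes. In the limma fit over all genes 0 of 10 had an adjusted p under 0.05, as did 0 of 18193 genes (0%), and the adjusted p of each clock gene was 0.999. At an unadjusted p under 0.05 the count was 0 of 10, against 466 of all genes (2.56%). This fit leaves the array sets described below in the spread. With array set as a block these counts were 1 of 10, Per2, and 703 of all genes, and none passed after adjustment. In 0 of 10 did the values of the 4 knockout arrays lie wholly above or below the 4 controls, which was so in 1.7% of all genes (0.682% higher and 1.02% lower in knockout). Clock, Per2, Per3, Cry1 and Tef, 5 of the 10, stood higher in knockout, and 5 stood lower. The differences, knockout minus control on the log2 scale, ran from -0.26 (Dbp) to 0.27 (Per2), with a median of -0.00645 against -0.00817 over all genes. For Pex5, the targeted gene, the mean was 9.38 ± 0.24 over the controls and 9.36 ± 0.10 over the knockouts (SD, n = 4), and whether its probe set lies in the deleted part is not known, so it does not check the labels.

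The clock genes did vary between arrays, along a split of the arrays that crosses the groups. The lower quartile of an array's values was 4.77 to 4.79 on controls 1 and 2 and knockouts 6 and 8, called the first array set here, and 4.83 to 4.85 on controls 3 and 4 and knockouts 9 and 10, the second set. The labels name no batch, and the split was made from all probe sets, in the data. The p-values and intervals between the sets therefore describe the split and are no independent test of it. The split coincides with the order of the samples in the series, the first set being listed before the second. Values of the sets did not overlap in 7 of 10 clock genes, against 14.4% of all genes. Arntl, Npas2 and Nr1d1 stood higher in the second set, as did 8.85% of all genes, and Per2, Per3, Cry1 and Tef lower, as did 5.58%. With group in the limma model the same 7 genes had an unadjusted p under 0.05, against 21.2% of all genes, and 0 of 10 passed after adjustment, against 6 of 18193 genes (0.033%). The median size of the difference was 0.48 over the clock genes and 0.13 over all genes. The 10 genes were chosen with earlier results of these data known. Among the 11 other clock transcription factors read below, Cry2 differed by -0.03 and Nr1d2 by -0.18 between sets, with overlap in both. In 2 of those 11 the sets did not overlap.

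**Figure D1:**
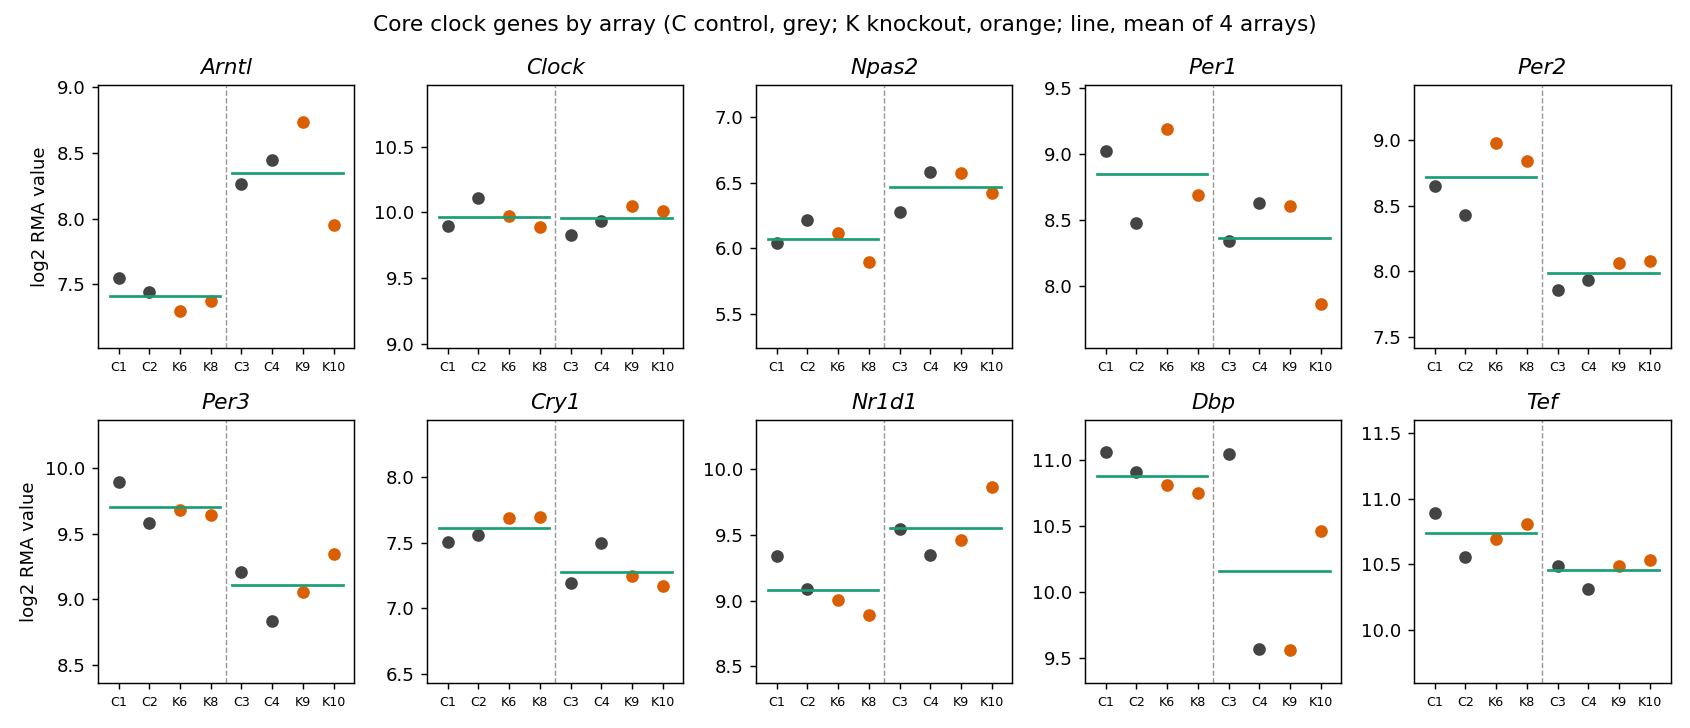
Each panel plots the log2 RMA value of 1 clock gene (its probe set of highest mean) on the 8 arrays, controls in grey and knockouts in orange, on axes that each span 2 log2 units. The dashed line parts the first array set from the second and the green lines are means of 4 arrays; Arntl steps up from 7.42 to 8.35 and Per2 down from 8.72 to 7.99.

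**Figure D2:**
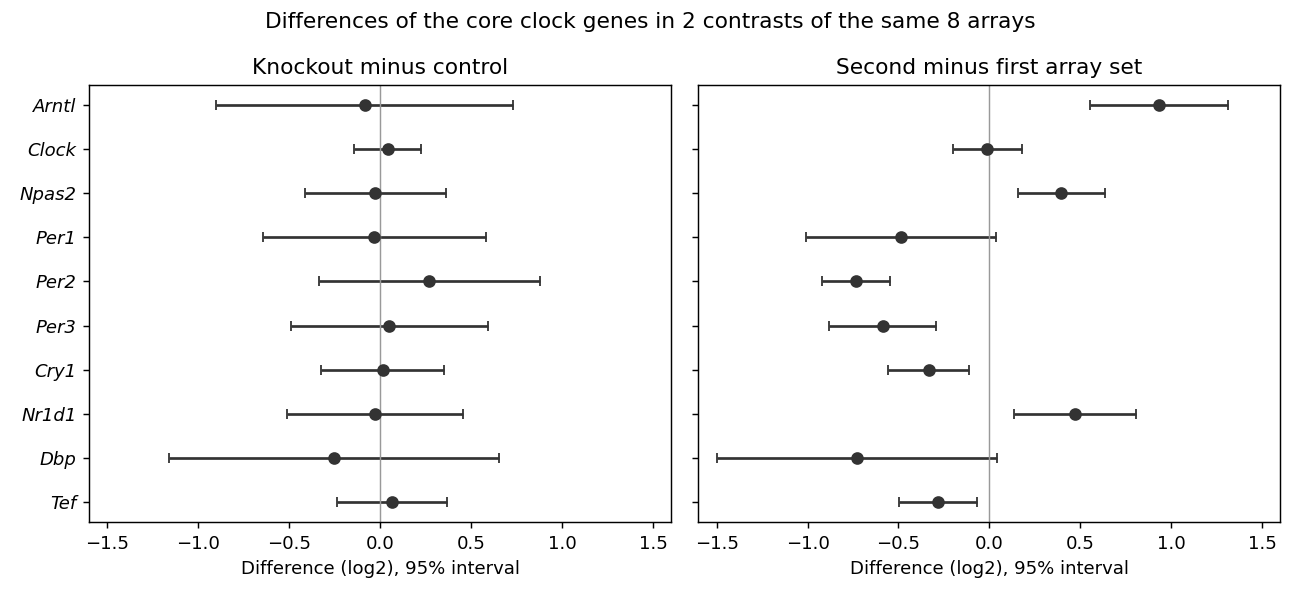
Points are differences in log2 value and bars their 95% intervals from the limma fits, knockout minus control on the left and second minus first array set on the right. All 10 intervals span 0 on the left, while 7 lie to one side of 0 on the right.

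Among the activators, Arntl showed the clearest step. It read 7.55, 7.45, 7.30 and 7.37 on controls 1 and 2 and knockouts 6 and 8, and 8.26, 8.44, 8.74 and 7.95 on controls 3 and 4 and knockouts 9 and 10. Every array of the second set was therefore above every array of the first, and knockout 9 was highest. The difference between sets was 0.93 (95% interval 0.55 to 1.31), a 1.91-fold change in signal, with a limma p of 0.000588, the 86th smallest of all genes, and an adjusted p of 0.110. It was 0.86 among the controls and 1.01 among the knockouts. Its other probe set, 1457740_at, split the sets in the same direction. By genotype the Arntl mean was 7.92 ± 0.50 over controls and 7.84 ± 0.67 over knockouts (SD, n = 4), a difference of -0.09 (-0.90 to 0.73). With array set as a block the interval was -0.46 to 0.29.

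Npas2, which can replace CLOCK as the partner of BMAL1, went the same way. It read 6.04, 6.22, 6.12 and 5.90 on controls 1 and 2 and knockouts 6 and 8, and 6.28, 6.58, 6.57 and 6.42 on controls 3 and 4 and knockouts 9 and 10, so the sets again did not overlap. The difference was 0.40 (0.16 to 0.63), with an adjusted limma p of 0.132. The dimmer probe set 1421037_at differed by 1.17 in the same direction, from 5.08 to 6.25. Between genotypes Npas2 differed by -0.03 (-0.41 to 0.36).

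Clock, which codes for the constant partner, hardly moved. It read 9.89, 10.11, 9.98 and 9.89 on controls 1 and 2 and knockouts 6 and 8, and 9.83, 9.93, 10.05 and 10.01 on controls 3 and 4 and knockouts 9 and 10. Its SD over the 8 arrays, 0.09, was lower than that of all but 16.2% of genes, and the sets overlapped in all 4 of its probe sets. The difference between sets was -0.01 (-0.20 to 0.18) and that between genotypes 0.04 (-0.14 to 0.23). All 4 probe sets stood higher in knockout, 1418660_at by 0.19 (0.02 to 0.35), at an unadjusted limma p of 0.0337 and an adjusted p of 0.999 over all probe sets, with the groups overlapping.

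Of the repressors, Per2 had the smallest p of the 10 genes in both comparisons. It read 8.65, 8.43, 8.97 and 8.84 on controls 1 and 2 and knockouts 6 and 8, and 7.86, 7.94, 8.07 and 8.08 on controls 3 and 4 and knockouts 9 and 10. The second set lay wholly below the first, by -0.74 (-0.92 to -0.55), a 1.67-fold change in signal. Its limma p of 2.78e-05 ranked 9th of all genes, and the adjusted p was 0.0563. All 3 Per2 probe sets split the sets, and with every probe set tested alone 1417602_at and 1457350_at passed (adjusted p = 0.0446 and 0.0267), 2 of 25 clock probe sets against 24 of 45037 in all (0.0533%). Quantile normalization, array weights and leaving out dim genes also put Per2 past the threshold (adjusted p = 0.0478, 0.0218 and 0.0382), whereas without control 1 it was 0.240 and over the fits that left out 1 array at least 0.108.

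Within each array set both knockouts had more Per2 signal than both controls, a pattern picked out after the values were seen. The difference was 0.37 within the first set and 0.17 within the second, on 2 arrays against 2. With the array set as a block the difference was 0.27 (0.08 to 0.46), at an unadjusted limma p of 0.0106 and an adjusted p of 0.932. Such an order within both sets, in either direction, held for 1 of 10 clock genes and 4.97% of all genes, and with knockouts higher for 2.2%. Without the block the same difference had an interval of -0.34 to 0.88, and its value ran from 0.11 without knockout 6 to 0.41 without control 1.

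Per3 was lower in the second set too. It read 9.89, 9.58, 9.68 and 9.64 on controls 1 and 2 and knockouts 6 and 8, and 9.21, 8.84, 9.06 and 9.35 on controls 3 and 4 and knockouts 9 and 10, with control 4 lowest. The sets did not overlap and differed by -0.59 (-0.88 to -0.29; limma adjusted p = 0.124). Of its 6 probe sets 5 were lower in the second set, 3 of them without overlap. The other one, 1441445_at, was 0.21 higher there, with knockout 9 at 7.55 and control 4 at 7.26 above the other 6 arrays, so the Per3 probe sets disagreed. Between genotypes Per3 differed by 0.05 (-0.49 to 0.59).

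Per1, which also responds to stimuli outside the clock, was less regular. It read 9.03, 8.48, 9.19 and 8.69 on controls 1 and 2 and knockouts 6 and 8, and 8.34, 8.63, 8.61 and 7.86 on controls 3 and 4 and knockouts 9 and 10. Control 2 lay inside the range of the second set, and knockout 10 was lowest of all. The difference between sets was -0.49 (-1.01 to 0.04; limma adjusted p = 0.260), or -0.29 without knockout 10, and that between genotypes -0.03 (-0.65 to 0.58).

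Cry1, the cryptochrome of the list, and Nr1d1, which codes for the REV-ERBα repressor of Arntl, stood in opposite order within each array set. Cry1 read 7.50, 7.56, 7.69 and 7.70 on controls 1 and 2 and knockouts 6 and 8, and 7.20, 7.50, 7.25 and 7.17 on controls 3 and 4 and knockouts 9 and 10. Nr1d1 read 9.34, 9.09, 9.01 and 8.89 on the first 4 of these and 9.54, 9.34, 9.46 and 9.86 on the other 4. Within either set, the array with more Nr1d1 signal had less Cry1 signal at every step of the order. That is a Spearman's rho of -1 on 4 arrays in each set, given as a description. The pair was picked out of 45 after the values were seen. Within the second set Per1 and Cry1, and Per3 and Tef, also had a rho of 1. Centred on the array set, Cry1 and Nr1d1 had an exact permutation p of 0.0486, adjusted 0.438. The sets differed by -0.33 in Cry1 (-0.56 to -0.11; limma adjusted p = 0.147) and by 0.47 in Nr1d1 (0.14 to 0.80; adjusted p = 0.153). In both genes control 4 fell almost level with control 1, 7.497 against 7.502 in Cry1 and 9.344 against 9.343 in Nr1d1, so the gap between sets was far below the spread within them. Between genotypes Cry1 differed by 0.01 (-0.33 to 0.35) and Nr1d1 by -0.03 (-0.51 to 0.46).

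Of the output genes, Dbp varied most. It read 11.06, 10.91, 10.81 and 10.75 on controls 1 and 2 and knockouts 6 and 8, and 11.05, 9.57, 9.56 and 10.46 on controls 3 and 4 and knockouts 9 and 10. Control 4 and knockout 9 lay below every other array, the next lowest being knockout 10, while control 3 lay with the first set. Probe set 1418174_at gave the same picture, with 8.38 on control 4 and 8.45 on knockout 9 against 9.40 to 9.91 elsewhere. The sets differed by -0.73 (-1.50 to 0.04; limma adjusted p = 0.256), and by -0.44 without control 4. The genotypes differed by -0.26 (-1.16 to 0.65), a value that was 0.02 without knockout 9 and -0.62 without control 4.

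Tef, a relative of Dbp, split the sets by a small amount in its brightest probe set. It read 10.89, 10.56, 10.69 and 10.81 on controls 1 and 2 and knockouts 6 and 8, and 10.49, 10.31, 10.49 and 10.53 on controls 3 and 4 and knockouts 9 and 10. The difference was -0.28 (-0.50 to -0.07; limma adjusted p = 0.166) and that between genotypes 0.07 (-0.23 to 0.37). Probe set 1450184_s_at showed another pattern, with 7.36 on control 4, 7.52 on knockout 9 and 8.42 on control 1, against 9.09 to 9.35 on the other 5 arrays.

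**Figure D3:**
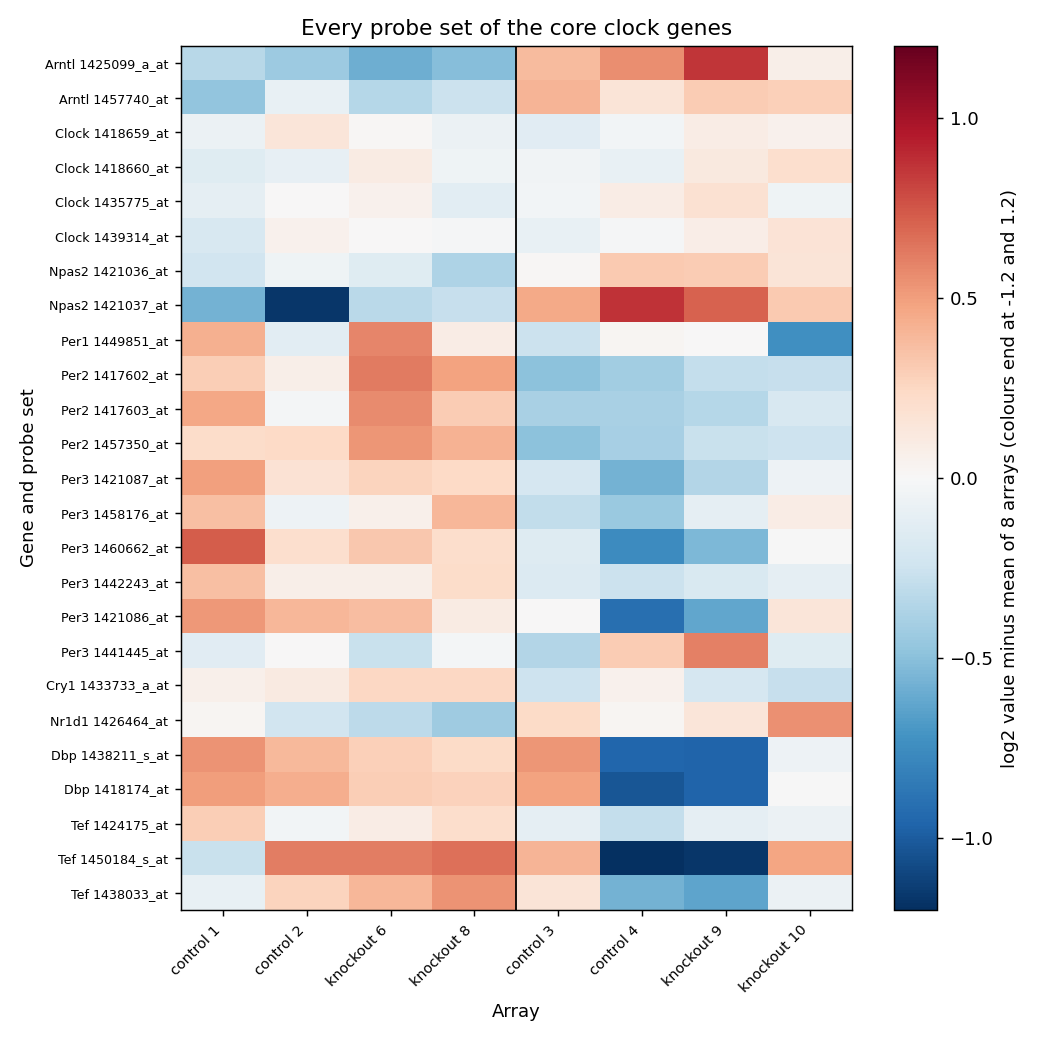
Rows are the 25 probe sets of the 10 clock genes and columns the 8 arrays, coloured by log2 value minus the row's mean, with the first array set left of the black line. The 13 probe sets that part the sets without overlap include both of Arntl and of Npas2 and all 3 of Per2, and control 4 and knockout 9 stand out in Dbp and in Tef 1450184_s_at.

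Over the 25 probe sets, 13 split the array sets without overlap, 5 upward and 8 downward, against 12.4% of all probe sets. None of the 25 split the genotypes, against 1.6% of all. A brightness on one probe set cannot be set against that on another, so the 10 genes were not ranked by level.

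A measure of RNA quality moved with some of these values. The 3′ minus 5′ difference of the pyruvate carboxylase control probe sets tends to be larger where RNA is more broken. It rests on a single transcript, and no other measure of RNA quality was used. This difference was 4.83 on control 4, 4.65 on knockout 9 and 3.97 on control 1, and 1.59 to 2.10 on the other 5 arrays. The arrays lowest in Dbp and in Tef 1450184_s_at were thus those with the largest differences, though control 1 was highest in Dbp. Control 4 and knockout 9 were also highest in Arntl and Npas2 and lowest in Per3, in their brightest probe sets. Control 1 read 7.55, 6.04 and 9.89 in these genes, on the side of the first set. With this measure as a covariate the difference between sets was -0.46 in Dbp, 0.80 in Arntl and -0.76 in Per2, and the genotype difference of Dbp was -0.46. Without controls 1 and 4 and knockout 9, the 3 arrays of largest 3′ minus 5′ difference, 0 of 10 clock genes were past the threshold. The difference between sets was then -0.13 in Dbp, -0.15 in Tef, -0.34 in Per3, 0.26 in Npas2, 0.70 in Arntl, 0.72 in Nr1d1 and -0.71 in Per2.

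**Figure D4:**
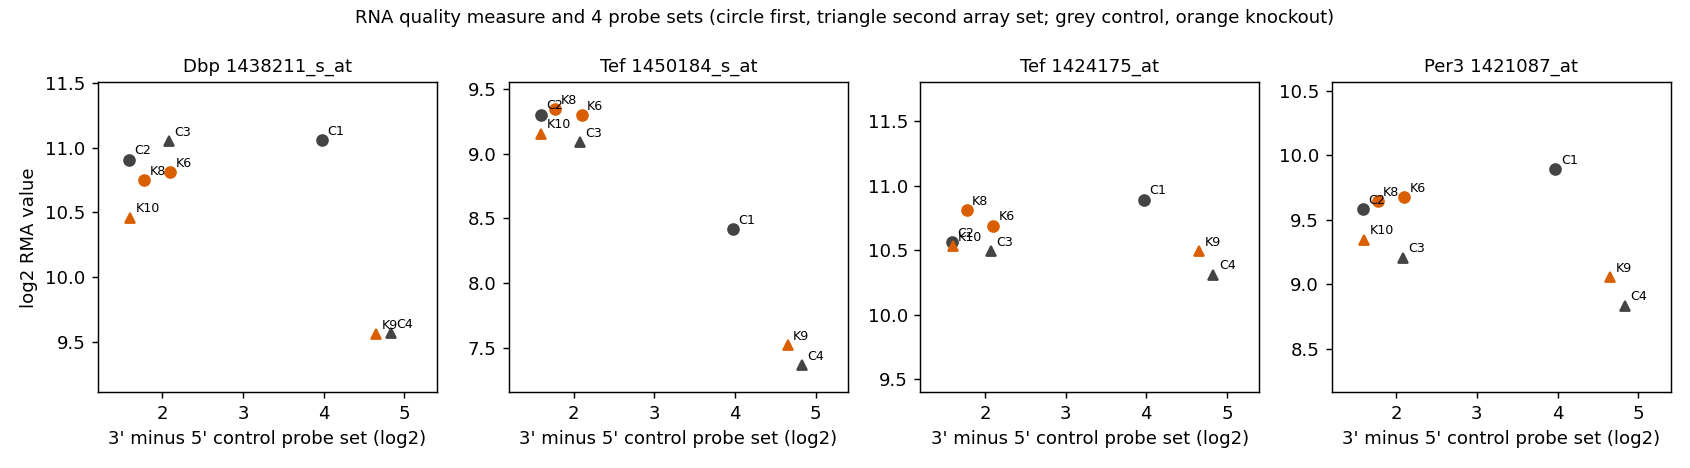
The x axis is the 3′ minus 5′ difference of the pyruvate carboxylase control probe sets (log2) and the y axis the log2 value of 4 probe sets, on y axes of equal span; circles are the first array set and triangles the second, grey control and orange knockout. Control 4 and knockout 9, at 4.83 and 4.65, are lowest in Dbp and in Tef 1450184_s_at.

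Some markers of other cells also differed between the array sets. The mean log2 level of 6 measured T and B cell markers of 7 listed was 5.69 to 5.87 in the first set and 6.12 to 6.49 in the second, and that of 3 red blood cell markers of 5 listed 5.63 to 6.02 and 6.19 to 7.52. Macrophage markers, 8 of 8 measured, read 9.21 to 9.79 and 9.77 to 10.15. Liver markers, 6 of 7 measured, read 7.61 to 11.21 and 5.97 to 7.56. Fibroblast markers, 5 of 6 measured, read 9.24 to 9.50 and 9.50 to 9.71, the sets barely parting. Spermatid markers, 5 of 5 measured, read 5.32 to 5.98 and 5.53 to 9.24, with control 3 at 8.66 and knockout 9 at 9.24. Neutrophil markers, 5 of 6 measured, read 9.15 on control 4 and 5.92 to 6.37 on the other 7 arrays. Adipocyte markers, 8 of 10 measured, overlapped at 13.12 to 13.32 and 12.90 to 13.27. Lists for endothelium, mesothelium, smooth muscle, epididymis and motile cilia, and for ovary, oviduct and uterus, also overlapped between the sets. Of the red blood cell markers, Hba-a1 had a mean of 3.97 over the arrays, near the low end of the values. The part of these cells in the clock values was not tested, and in whole tissue fewer cells of a type and less RNA per cell cannot be told apart. By genotype the ranges of all these lists overlapped.

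The effect of genotype was compared between the 2 array sets with an interaction term, and 0 of 10 clock genes and 0 of 18193 genes had an adjusted limma p under 0.05. At an unadjusted p under 0.05 the count was 589 of all genes. The smallest unadjusted p among the clock genes was 0.0857, for Nr1d1, which differed by -0.27 between genotypes in the first set and by 0.22 in the second.

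Correlations over the 8 arrays were computed for the 45 pairs of clock genes with exact two-sided permutation tests. In 21 pairs both genes split the array sets, so that a pooled r only restates the split, and none is given for them. Of the other 24, 0 passed after Benjamini-Hochberg adjustment over the 45, and 5 had an unadjusted exact p under 0.05. Npas2 and Dbp correlated at r = -0.81 (exact permutation p = 0.0150, adjusted 0.0613) and rho = -0.64 (exact p = 0.0962, adjusted 0.188), and r was -0.87 without knockout 8 and control 4. Per3 and Dbp correlated at r = 0.80 (exact permutation p = 0.0143, adjusted 0.0613) and rho = 0.67 (exact p = 0.0831, adjusted 0.178), and r was 0.62 without control 4 and control 1. Arntl and Dbp correlated at r = -0.76 (exact permutation p = 0.0282, adjusted 0.0906) and rho = -0.48 (exact p = 0.243, adjusted 0.342), but r was 0.03 without knockout 9 and control 4, on which this relation rests.

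Per1 correlated with Cry1 at r = 0.73 (exact permutation p = 0.0354, adjusted 0.0957) and rho = 0.76 (exact p = 0.0368, adjusted 0.0973), and with Nr1d1 at r = -0.71 (exact p = 0.0460, adjusted 0.115) and rho = -0.76 (exact p = 0.0368, adjusted 0.0973). Without knockouts 10 and 6 these became 0.44 and -0.17. After centring on the array set, an alternative chosen after seeing the data, 0 of the 45 pairs passed and 5 had an unadjusted exact p under 0.05. The values were -0.82 for Per3 and Cry1, 0.87 for Per3 and Nr1d1, 0.79 for Per3 and Tef, -0.80 for Cry1 and Nr1d1 and 0.78 for Clock and Npas2. All of these but Clock and Npas2 are among the 21 pairs in which both genes split the array sets. No pooled r is given for those, so they could not be named before centring. In the 5 pairs named before centring, it gave r of -0.675 for Npas2 and Dbp, 0.682 for Per3 and Dbp and -0.579 for Arntl and Dbp. For Per1 it gave 0.466 with Cry1 and -0.435 with Nr1d1. The exact p, permuted within the array sets, was 0.101, 0.181, 0.491, 0.299 and 0.319 in that order. Clock, without centring, had r between -0.30 and 0.35 with each of the other 9 genes.

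The genes most like Arntl over the 8 arrays, by Pearson's r among 2886 other genes above the median level and with an SD of at least 0.2, were Csgalnact2 (0.963), Nbl1 (0.960), Lrp1 (0.959), Zfp36l2 (0.952) and Tmcc2 (0.947). The most opposite were Dstyk (-0.981), Baiap2 (-0.971), Marf1 (-0.953), Sdad1 (-0.952) and Ehd2 (-0.952). The array sets did not overlap in 9 of these 10 genes, Sdad1 being the exception, so r here measures likeness and is no test. Among the clock genes in that pool Per3 was the 24th and Per2 the 32nd most opposite to Arntl.

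For Dbp the most similar were Tufm (0.972), Sat2 (0.953), Cap1 (0.940), Ucp3 (0.939) and Fsd2 (0.932), and the most opposite Tspan5 (-0.956), Gm32031 (-0.941), Col1a1 (-0.937), Adamts15 (-0.927) and Thra (-0.926). Control 4 and knockout 9, with the largest 3′ minus 5′ differences, lay below every other array in each similar gene and above in each opposite one. Here too r measures likeness and is no test, and the part of RNA quality in it was not tested. Ucp3, a mitochondrial carrier, read 8.01 to 8.75 on controls 1, 2 and 3 and knockouts 6 and 8, and 6.27, 6.42 and 6.77 on knockout 9, control 4 and knockout 10. Arntl was the 151st most opposite to Dbp and Per3 the 149th most similar.

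The other genes of the clock were read from lists by role. Of 11 other clock transcription factors 0 passed in either comparison. By genotype 7 stood higher (median 0.0071), Hlf, another relative of Dbp, by 0.26 and Arntl2, a paralogue of Arntl, by 0.13, and Ciart, a repressor of CLOCK and BMAL1, stood at -0.08. By array set 7 stood lower (median -0.15, against 0.02 over all genes), with Rora, the activator that competes with REV-ERB proteins, at -0.28 without overlap of the sets, Hlf at -0.33 and Timeless at 0.25. At an unadjusted p under 0.05 there were 3 of the 11, against 21.2% of all genes. The sets did not overlap in 2 of the 11, Rora and Ciart, against 14.4% of all genes.

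Of 13 genes of the clock's kinases, phosphatases, ubiquitin pathway and other regulators such as Sirt1, 0 passed in either comparison. By genotype the median was -0.04, with the deubiquitinase Usp2 at 0.42, Fbxl21 at 0.18 and Sirt1 at -0.13. By array set 9 were lower (median -0.14), with Csnk2a1, a catalytic subunit of casein kinase 2, at -0.59 and Ppp1cb, a catalytic subunit of protein phosphatase 1, at 0.29, each without overlap, and Fbxl21 at -0.24. At an unadjusted p under 0.05 there were 4 of the 13, against the same 21.2%. The sets did not overlap in 2 of the 13, against 14.4% of all genes.

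Of 12 clock-controlled output genes 0 passed in either comparison. Wee1, a kinase that restrains entry into mitosis and a target of the clock, read 8.73, 8.74, 8.85 and 9.07 on controls 1 and 2 and knockouts 6 and 8, and 8.11, 8.15, 7.77 and 8.12 on controls 3 and 4 and knockouts 9 and 10. The sets did not overlap in Wee1 and differed by -0.81 (-1.09 to -0.53; limma adjusted p = 0.0982), the 38th smallest p of all genes, whereas the genotypes differed by 0.02. Gys2, the liver form of glycogen synthase, differed by -2.02 between sets (adjusted p = 0.119), with knockout 8 at 7.31 below control 3 at 7.52, and Lpin1, a phosphatidate phosphatase, by -0.62. By genotype the median was 0.02, with Alas1 at 0.20, Gys2 at -0.86 and Pdk4 at 0.18. By array set 9 of 12 were lower, with a median of -0.29. Between sets 2 of the 12 had an unadjusted limma p under 0.05, against 21.2% of all genes. Wee1 was the only 1 of the 12 without overlap of the sets, which was so in 14.4% of all genes.

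Lists of glucocorticoid targets and of immediate early genes had 0 members past the threshold in either comparison. By genotype 9 of 10 glucocorticoid targets stood higher (median 0.14), Zbtb16 by 0.42 at an unadjusted limma p of 0.0304 (adjusted 0.999), Mt2 by 0.45 and Klf9 by 0.14. By array set their median was -0.04, with Mt2 at 0.40, Dusp1 at -0.17 and Klf9 at 0.11. Of 11 immediate early genes 8 were lower in knockout (median -0.12; Atf3 -0.28, Jun 0.23, Egr2 -0.38) and 7 lower in the second set (median -0.11; Egr3 0.17, Egr2 -0.39, Junb -0.18).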

How the data were processed

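RNA was extracted with Trizol and labelled with biotin, per the labels' protocols, and measured on 1 array per sample. The deposited values are log2 values per probe set, made by the authors with RMA (background correction, normalization between arrays, summary over probes), per the submitters' processing notes, which name no version. RMA compresses low values, and the deposited table holds no detection calls. Of 45101 probe sets 64 controls were left out; 34945 of the rest had 1 gene symbol, 932 several and 9160 none in the platform annotation. Group and array set contrasts were fitted over 18193 genes by the linear models of limma (version 3.58.1, under R 4.3.3) with moderated variances, Benjamini-Hochberg adjustment and a threshold of 0.05, and intervals of 95% are unadjusted. On data simulated for 18193 genes, the set contrast recovered 39 of 50 genes changed 2-fold with 12 false calls, and the genotype contrast 45 of 50 with 9. The simulated arrays held no difference between sets, with noise taken from a fit of group and set. So 45 of 50 overstates what the genotype fit, which leaves the sets in its spread, can recover among genes that differ between sets. For Per2 the standard error of the genotype difference was 0.27 in that fit and 0.079 with array set as a block. The number of arrays limits precision. The clock genes, lists, motifs and tests were chosen with earlier results of these data known. Named are all clock genes, Pex5, Cry2, Nr1d2 and Hba-a1. Named too are the 3 genes with the smallest p in each contrast in each other clock list. The 5 most and 5 least similar genes of Arntl and Dbp are also named. Alternatives were variance trend, dim-gene filter, probe set rule, scaling, array weights, RNA quality, array set and left-out arrays. Permutations numbered 40320 per pair. Figures were drawn with matplotlib 3.10.9.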

Additional observations from a re-analysis of the deposited data

Results flagged for a closer look

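In 2 of the 20 gene and group combinations examined (10 clock genes, 4 arrays each), 1 array stood apart from the other 3 by more than Dixon's 95% criterion, where chance gives about 1 in 20. Among the controls, Dbp was lowest on control 4, at 9.565, with a gap of 0.902 of the range. Cry1 was lowest on control 3, at 7.196, with a gap of 0.839 of the range.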

How the results depend on the processing

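No paired analysis was possible because the 2 groups share no replicate number. Between genotypes 0 of 10 clock genes passed limma under every alternative run, and 0 genes in all, except that 155 passed without controls 1 and 4 and knockout 9, none of them a clock gene. Small genotype differences changed sign. Under the mean of probe sets Npas2 was 0.0902; with array medians subtracted Cry1 was -0.0142; with array weights Per3 was -0.01; with the RNA quality covariate Arntl was 0.0628, Npas2 0.03, Per1 0.023 and Per3 -0.0205; without the 3 arrays Clock was -0.0114 and Per1 0.17. Within the first array set Clock was -0.0705, Per1 0.186 and Per3 -0.0786, and within the second Npas2 was 0.0664, Cry1 -0.139 and Nr1d1 0.217. Leaving out each array in turn, the genotype difference ran from -0.384 to 0.0956 in Arntl, -0.132 to 0.0919 in Npas2, -0.23 to 0.21 in Per1, -0.13 to 0.22 in Per3, -0.0691 to 0.107 in Cry1, -0.21 to 0.11 in Nr1d1, -0.616 to 0.0245 in Dbp and -0.018 to 0.176 in Tef; Per2 (0.109 to 0.414) and Clock (0.00308 to 0.0977) kept their sign there.

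Between array sets, 1 clock gene, Per2, passed with dim genes left out, every probe set alone, quantile normalization or array weights (-0.74, -0.74, -0.69 and -0.78). The filter on dim genes left 9 of 10 clock genes, without Npas2. Against 6 genes past the threshold, 0 passed with the mean of probe sets, the RNA quality covariate, the 3 arrays left out, within controls or within knockouts (1761 to 3694 at an unadjusted p under 0.05), 1 with array medians subtracted, 12 with quantile normalization, 79 with array weights, 24 probe sets when each was tested alone, and 0 to 1 without each array in turn. Clock changed sign, at 0.0634 with the mean of probe sets, 0.0281 with quantile normalization, 0.0143 with array weights and 0.0996 within knockouts, and ran from -0.0519 to 0.0539 without each array in turn; the other 9 kept their sign under all alternatives that gave a value, but not their size: Dbp was -0.438 without control 4 and -0.126 without the 3 arrays, Per1 -0.293 without knockout 10 and -0.787 with array weights, and the mean of probe sets gave 0.784 in Npas2 and -0.549 in Tef. Without each array in turn 0 to 3 of the 24 pairs passed, but the 3 without control 3 are Dbp with Arntl, Npas2 and Per3, and there Dbp parts the array sets too, so that these r restate the split and are not read; 1 passed without knockout 8 (Npas2 and Dbp, -0.91). The causes were not tested.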
